A study of Mus musculus with 4 samples.

Results

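Cluster 19 is a group of 252 of the 26144 kidney cortex nuclei, with 68, 64, 66 and 54 nuclei in the 4 libraries. It was taken as the submitters' own cluster number in the deposited table and had been proposed as thick ascending limb-like from Nrxn3 and Slc12a1. The study measured nuclear RNA of mouse kidney cortex by droplet single-nucleus sequencing, to ask how lowering Klf4 in endothelial cells acts with and without Nos3. All 4 genotypes are labelled C57BL/6J and have 1 library each: Klf4flox/flox, the control; Klf4deltaEC, with knockdown of the transcription factor Klf4 in endothelial cells; Nos3-/-, lacking endothelial nitric oxide synthase; and Klf4deltaECNos3-/-, with both. Values are given in this library order throughout. The sources used here do not give the Cre driver or the number of mice per library. A level is the mean over nuclei of unique molecular identifiers (UMIs, counted RNA molecules) of a gene per 10000 UMIs.

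The thick ascending limb of the loop of Henle reabsorbs salt through the cotransporter encoded by Slc12a1 and is impermeable to water. At its end, where the tubule touches the glomerulus of origin, it carries a small plaque of cells, the macula densa, which senses luminal salt. Macula densa cells contain neuronal nitric oxide synthase (Nos1) and cyclooxygenase 2 (Ptgs2), and their signals set afferent arteriolar tone and renin release.

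The genes named in the genotype labels could check little in these nuclei. Klf4 was listed at 0 in 3 libraries and at 0.00479 in Klf4deltaECNos3-/-. Nos3 was at 0 in the first 2 libraries, 0.0714 in Nos3-/- and 0.00479 in Klf4deltaECNos3-/-. In cluster 10, where both genes were highest, Klf4 stood at 0.621, 0.779, 0.445 and 0.824 and Nos3 at 1.26, 0.930, 1.52 and 2.07. Neither gene was lower there in the libraries labelled as lacking it, and whether the counted RNA lies in the deleted parts is not given, so each library is named below by its label only. Median UMI totals per nucleus of cluster 19 were 2977, 2806, 2128 and 3978. A level of 3 counted UMIs corresponded on average to 0.148, 0.165, 0.224 and 0.140. The Klf4deltaECNos3-/- library also held 2 nuclei of 37785 and 38655 UMIs, in which each UMI adds less to a level. Barcodes are not in the table analysed here, so barcodes shared between libraries were not counted. Each genotype is 1 library and the clusters were drawn by the submitters from the same genes, so no difference below has a test. The ranges in brackets are 95% counting intervals, which cover counting error only.

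Cluster 19 carried the salt transport program of the thick ascending limb. Slc12a1, the apical sodium-potassium-chloride cotransporter, was at 163, 171, 99.0 and 182 in cluster 19. Its level was 225, 225, 115 and 199 in cluster 2 and 204, 210, 107 and 210 in cluster 4, the larger thick ascending limb clusters. In each library cluster 19 was the lowest of the 3 clusters, by log2 ratios of -0.47 to -0.11, and the Nos3-/- library was the lowest within each cluster. The median of Slc12a1 over the other 20 clusters was 7.39. The 21 thick ascending limb markers summed to 271 to 425 in cluster 19, 208 to 344 in cluster 2 and 259 to 466 in cluster 4. Slc12a1, part of these sums, had served to name the cluster, so the markers that had not are given one by one below. Measured against clusters 2 and 4 as described below, 2 of the 20 markers past the filter were higher (Enox1 and Tmem52b) and 4 were lower (Cldn10, Ptger3 and Esrrb among them). Over all genes 1.05% were higher and 0.672% lower. The median log2 ratio of the markers was -0.22 against -0.04 over all genes.

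The individual markers placed cluster 19 beside cluster 4 rather than cluster 2. Egf, the epidermal growth factor precursor, was at 178, 154, 108 and 146 in cluster 19, and ranged from 88.2 to 158 in cluster 4 and from 37.0 to 53.1 in cluster 2. The highest Egf mean of the other 20 clusters was 59.6, in cluster 9, where the distal convoluted tubule gene Slc12a3 was also highest. It lay above every library of cluster 2, so Egf did not mark the thick ascending limb alone. The name thick ascending limb-like is kept as it was proposed. Casr, the calcium-sensing receptor, was at 9.93, 8.68, 6.93 and 7.28, above cluster 4 (4.47 to 7.83) in each library and far above cluster 2 (1.08 to 2.25). Cldn16, a tight junction protein for calcium and magnesium, was at 1.55, 1.41, 0.957 and 2.36, against 0.498 to 0.913 in cluster 4 and 0.0955 to 0.197 in cluster 2. For both Casr and Cldn16, cluster 19 was above each of the other 22 clusters in 4 of 4 libraries.

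Other markers of the segment were low. Cldn10, the tight junction protein of the sodium-permeable limb, was at 0.474, 0.831, 0.741 and 0.756, below every value in cluster 2 (2.46 to 4.56) and cluster 4 (1.83 to 1.99). Ptger3, a prostaglandin E2 receptor, was at 2.30, 0.684, 1.51 and 1.78, against 9.37 to 17.4 in cluster 2 and 7.24 to 13.2 in cluster 4. Esrrb, an orphan nuclear receptor, was nearly constant at 2.78, 2.99, 2.97 and 2.98, and no library of cluster 2 or 4 was below 8.86. Umod, the urinary protein uromodulin, was at 15.1, 15, 7.96 and 19.8, between cluster 2 (5.57 to 18.5) and cluster 4 (13.4 to 36.7) in each library. Histology finds little uromodulin in macula densa cells. Over the other 20 clusters, most of them of types that should lack Umod, its means had a median of 2.38 and a maximum of 9.85; the part of free RNA in the value of cluster 19 was not tested.

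**Figure D1:**
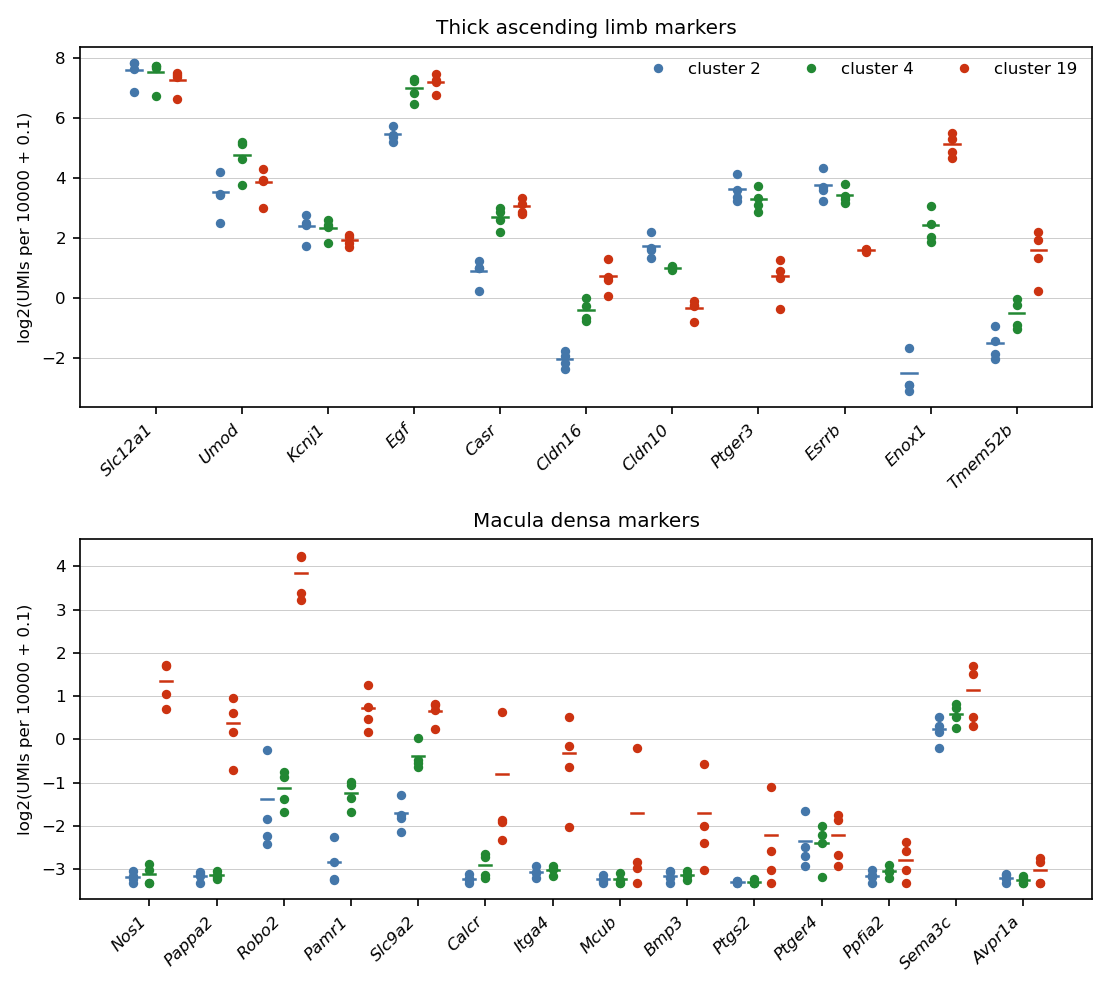
Levels of thick ascending limb markers (top) and macula densa markers (bottom) in clusters 2, 4 and 19, as log2(UMIs per 10000 + 0.1). Points are the 4 libraries and bars their mean; Nos1, Pappa2 and Robo2 in cluster 19 lie above every point of clusters 2 and 4, whereas the range of Slc12a1 overlaps with theirs and Ptger3, Cldn10 and Esrrb lie below.

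Against both larger clusters at once, 58 genes were higher in cluster 19 and 37 were lower. A gene was counted when the log2 ratio of (level + 0.1) was at least 1, or at most -1, over cluster 2 and over cluster 4 in all 4 libraries, among 5508 genes that reached 0.5 in any of these columns. The counted shares were 1.05% and 0.672% of genes tested. The counts were 24 and 17 with a pseudocount of 0.5, 32 and 24 with a filter of 2, and 97 and 68 without the Nos3-/- library, where fewer ratios had to pass. Taken singly, 172 genes (3.12%) were higher and 98 (1.78%) lower than in cluster 2, and 64 (1.16%) were higher and 46 (0.835%) lower than in cluster 4. Cadps2 at a smallest log2 ratio of 1.04 and Fam129a at 1.07 were just inside the limit, and Itga4 at 0.98 and Acsl4 at 0.94 just outside it. Because the clusters came from the same genes, these counts describe the cluster and test nothing.

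**Figure D2:**
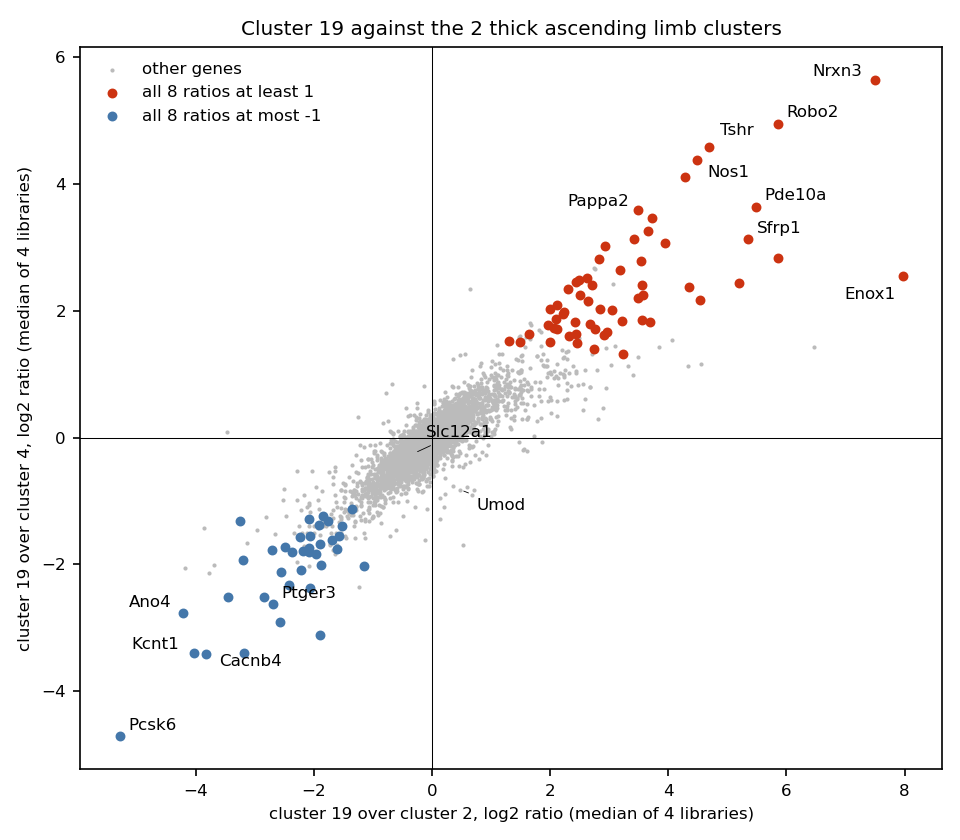
Log2 ratio of cluster 19 over cluster 2 (x axis) and over cluster 4 (y axis), each the median of 4 libraries, for 5508 genes. Red points are the 58 genes with all 8 ratios at least 1 and blue points the 37 with all 8 at most -1; Nrxn3 lies at the upper right and Pcsk6 at the lower left, and Slc12a1 near the centre.

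Nrxn3, which encodes the synaptic adhesion protein neurexin 3, led the cluster. Its level was 44.2 [41.4 to 47.2], 57.0 [53.6 to 60.6], 38.1 [34.9 to 41.6] and 43.4 [40.6 to 46.2]. Cluster 2 had 0.0801 to 0.475 and cluster 4 had 0.432 to 1.91, so the groups were far apart. The 8 log2 ratios ran from 4.25 to 8.31, and the highest other cluster mean was 2.36, in cluster 10. The gene spans 1612235 bases of chromosome 12 (88722701 to 90334935, GRCm38.p6). The pattern was not common to its family: Nrxn2 reached at most 0.00490 in cluster 19, under the level of 3 counts. Of 12 neurexin-related genes past the filter, Nrxn3 alone was counted higher and 0 were counted lower, against 1.05% and 0.672% of all genes. Their median log2 ratio was 0.12 against -0.04 over all genes. Nlgn and Lrrtm partners did not pass the filter.

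Cntn5, Cadm2 and Enox1 were high with it. Cntn5, a contactin, was at 12.2, 9.61, 5.08 and 8.03, where cluster 4 had 1.06 to 2.24 and cluster 2 at most 0.282. Cadm2, a cell adhesion molecule of nerve cells, was at 4.88, 4.71, 4.45 and 5.46, against 0.739 to 1.46 in cluster 4. Enox1, an electron transfer protein of the cell surface, was at 25.5, 45.1, 29.0 and 39.2, with 3.55 to 8.25 in cluster 4 and at most 0.218 in cluster 2. All 3 exceeded the other 22 clusters in every library.

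Axon guidance genes were a further list. Robo2, the receptor for Slit proteins, was at 10.4 [9.02 to 11.9], 18.9 [17 to 21], 9.25 [7.69 to 11] and 18.5 [16.7 to 20.4], and no library of clusters 2 and 4 exceeded 0.747. It was not exclusive to the cluster, since cluster 15 had a mean of 38.0. Slit2, a Robo ligand, was at 36.1, 39.1, 24.8 and 40.0, with 15.8 to 23.3 in cluster 4 and 9.04 to 16 in cluster 2; its smallest log2 ratio of 0.64 missed the limit. Unc5d, a netrin receptor, was at 1.97, 1.92, 0.620 and 2.16, and Sema6a, a semaphorin, at 0.773, 0.997, 1.63 and 2.61. Of the 17 axon guidance genes past the filter, 3 were counted higher (Robo2, Sema6a and Unc5d) and 0 lower, against 1.05% and 0.672% of all genes, with a median log2 ratio of 0.74 against -0.04. Members high only in cluster 19 could pass the filter through it, here and in the other lists, so these figures describe the lists. Robo2 is also counted among the macula densa markers below. Efna5, an ephrin, was at 4.24, 3.67, 4.11 and 4.88, under the lowest value of cluster 4 (7.03), with its nearest log2 ratio at -0.76.

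The secreted and matrix genes included known modifiers of growth factor signals. Sfrp1, a secreted Wnt antagonist, was at 6.57, 10.5, 8.81 and 8.72, against 0.519 to 1.24 in cluster 4 and at most 0.132 in cluster 2. Col5a2, a fibrillar collagen chain, was at 10.4, 11.5, 5.29 and 7.75, against 0.726 to 1.58 in cluster 4. Ndst4, which modifies heparan sulfate, was at 2.12, 1.63, 1.08 and 3.08, where no library of clusters 2 and 4 exceeded 0.0229. Pappa, the paralog of the macula densa marker Pappa2, was at 3.85, 3.98, 3.21 and 2.94, with 0.655 to 1.00 in cluster 4.

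Receptors and signalling enzymes were among the higher genes. Tshr, the thyrotropin receptor, was at 4.35, 3.97, 2.57 and 3.26, and at most 0.183 in clusters 2 and 4. Pth1r, the parathyroid hormone receptor, was at 4.50, 3.58, 6.84 and 5.13, against 1.01 to 2.48 in cluster 4. Pde10a, a cyclic nucleotide phosphodiesterase, was at 7.11, 5.94, 13.3 and 11.9, with at most 0.912 in cluster 4. Wnk1, a kinase that regulates the salt cotransporters, was at 30.8, 48.0, 22.3 and 45.2, against 6.55 to 9.65 in cluster 4. The highest level of Wnk1 was elsewhere, with a mean of 59.0 in cluster 11. Atp2b4, a calcium pump of the plasma membrane, was at 0.818, 1.63, 1.96 and 2.15, with at most 0.294 in cluster 4.

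The macula densa question was put to 21 listed genes. Nos1, the defining enzyme, was at 1.52 [1.03 to 2.16], 1.96 [1.37 to 2.72], 3.13 [2.26 to 4.24] and 3.18 [2.47 to 4.02] in cluster 19. In clusters 2 and 4 no library exceeded 0.0366, and the highest other cluster mean was 0.0649, in cluster 10. The smallest of its 8 log2 ratios was 3.91, and its lead over the highest of the other 22 clusters was at least 3.44 in each library, the largest lead of any gene. Pappa2, a protease that cleaves insulin-like growth factor binding proteins, was at 1.43 [0.959 to 2.06], 1.03 [0.616 to 1.61], 0.510 [0.202 to 1.06] and 1.84 [1.31 to 2.51]. Clusters 2 and 4 had at most 0.0215, and cluster 15 had the highest other mean, 0.175.

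Robo2, described above, and Pamr1 also met the limit. Pamr1, a secreted peptidase-domain protein, was at 1.03, 1.29, 2.29 and 1.58, against 0.212 to 0.406 in cluster 4 and at most 0.108 in cluster 2. Its highest other cluster mean was 0.900, in cluster 9. Slc9a2, a sodium-hydrogen exchanger of the macula densa, was at 1.51, 1.08, 1.67 and 1.63. It was above cluster 4 (0.543 to 0.925) and cluster 2 (0.127 to 0.311) in each library, but its smallest log2 ratio was 0.79. Its mean in cluster 11 was 1.36, within the range of cluster 19. Of the 10 listed genes past the filter, 4 were counted higher and 0 lower, against 1.05% and 0.672% of all genes, and their median log2 ratio was 2.19 against -0.04. A gene high only in cluster 19 could pass the filter through it, so these figures describe the list.

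The other listed genes fell into groups. Calcr, Mcub and Bmp3 were high mainly in Klf4deltaECNos3-/-, and Itga4 was above clusters 2 and 4 in every library; these 4 are given with the library comparisons. All of the remaining genes but Sema3c were at or near 0. Ptgs2 was at 0.0236, 0, 0.0680 and 0.367, the last alone above the level of 3 counts, and the highest other cluster mean was 0.0171. Oxtr (the oxytocin receptor) and Nov were at 0 in all 4 libraries, which allows levels up to 0.140 to 0.224 by library. Avpr1a (a vasopressin receptor), Tmem158, Cxcl14, Ptges (prostaglandin E synthase) and Ppfia2 had at most 0.0927. Sema3c was well detected, at 3.13, 2.77, 1.33 and 1.13, but overlapped with clusters 2 and 4. Ptger4 (0.0321 to 0.198), Cyr61 (0.0172 to 0.147) and Fabp3 (0.0502 to 0.240) overlapped with or lay below clusters 2 and 4. Thus Nos1, Pappa2, Robo2 and Pamr1 placed cluster 19 as macula densa-like by 4 of its 21 listed markers, while Ptgs2, Avpr1a and Oxtr were at or close to the detection level in most libraries. Robo2 and Pamr1 were also found elsewhere, with means of 38.0 in cluster 15 and 0.900 in cluster 9. Renin itself (Ren1), which the neighbouring juxtaglomerular cells make, was at 0 in all 4 libraries.

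Genes lower in cluster 19 included ion channel subunits and regulators of the segment. Pcsk6, a proprotein convertase, was at 0.244, 0.139, 0.0322 and 0.0405, where clusters 2 and 4 had at least 3.99, and its 8 log2 ratios lay between -6.03 and -3.81. Cacnb4, a calcium channel beta subunit, was at 2.95, 2.78, 2.73 and 3.39, against 32.8 to 51.7 in cluster 2 and 24.6 to 35.9 in cluster 4. Cacnb2, its relative, was at 0.418, 0.636, 0.782 and 0.499, against at least 3.59 in clusters 2 and 4. Kcnt1, a sodium-activated potassium channel, was at 0.177, 0, 0.0322 and 0.329, against at least 1.53. None of these libraries overlapped with the larger clusters.

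Transcription factors and cofactors were also among the lower genes. Sim2 was at 0.562, 0.190, 0.379 and 0.573 (at least 1.99 in clusters 2 and 4) and Zfpm2, a GATA cofactor, at 0.341, 0.157, 0.406 and 0.294 (at least 2.69). Ppargc1a, the coactivator of mitochondrial biogenesis, was at 15, 8.77, 8.41 and 7.22, below cluster 4 (10.3 to 22) in each library, though its nearest log2 ratio was -0.29. Of 16 segment transcription factors past the filter, 2 (Sim2 and Esrrb) were lower and 0 higher, against 0.672% and 1.05% of all genes, with a median log2 ratio of -0.02 against -0.04.

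In the other lists few members passed the limit, which 1.05% of all genes passed upward and 0.672% downward. Of 16 salt transport genes past the filter, 0 were higher and 2 lower (Kcnt1 among them), with a median log2 ratio of -0.20. Fxyd2, the gamma subunit of the sodium pump, was at 14.9, 20.6, 15.2 and 20.2, above cluster 4 (9.73 to 12.9) in each library. Of 12 genes of WNK and SPAK regulation, 1 was higher (Wnk1), and of 13 calcium and magnesium genes, 2 were higher (Pth1r and Atp2b4) and 1 lower (Cldn10), with a median log2 ratio of 0.45 against -0.04 over all genes. Pla2g4a, which frees arachidonic acid for prostaglandins, was at 1.82, 3.06, 1.08 and 2.75, above cluster 4 (0.652 to 0.906) in each library, with a smallest log2 ratio of 0.65. Of 6 genes of the nitric oxide, prostaglandin and renin list, 1 was higher (Nos1). Of 12 hormone receptors and cyclases, 1 was higher (Pth1r) and 1 lower (Ptger3). None of 2 injury or 6 immediate early genes past the filter was counted.

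Seen against all other clusters, 49 genes (0.890% of those tested) were highest in cluster 19 in all 4 libraries, 15 of them (0.272%) by a log2 ratio of at least 1. In order of their smallest lead these 15 were Nos1, Nrxn3, Ndst4, Enox1, Plcxd3, Col5a2, Cntn5, Nsg2, Shd, Gm6994, Sfrp1, Cadm2, Pappa2, Car15 and Unc5d. Gm6994 lies within the span of Enox1 on chromosome 14, so they share a locus. Plcxd3, a phospholipase-domain protein, was at 4.76, 4.55, 3.25 and 3.59, with a highest other mean of 0.423 in cluster 13. Nsg2, a neuronal vesicle protein, was at 0.618, 1.11, 0.803 and 0.312, with a highest other mean of 0.0332. Over the 92 columns the genes with levels most like Nrxn3, by Pearson correlation of log2(level + 0.1), were Col5a2 (0.87), Plcxd3 (0.82), Enox1 (0.80), Ndst4 (0.77) and Nsg2 (0.76). These columns share libraries and depth, and 4 of them are cluster 19 itself.

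**Figure D3:**
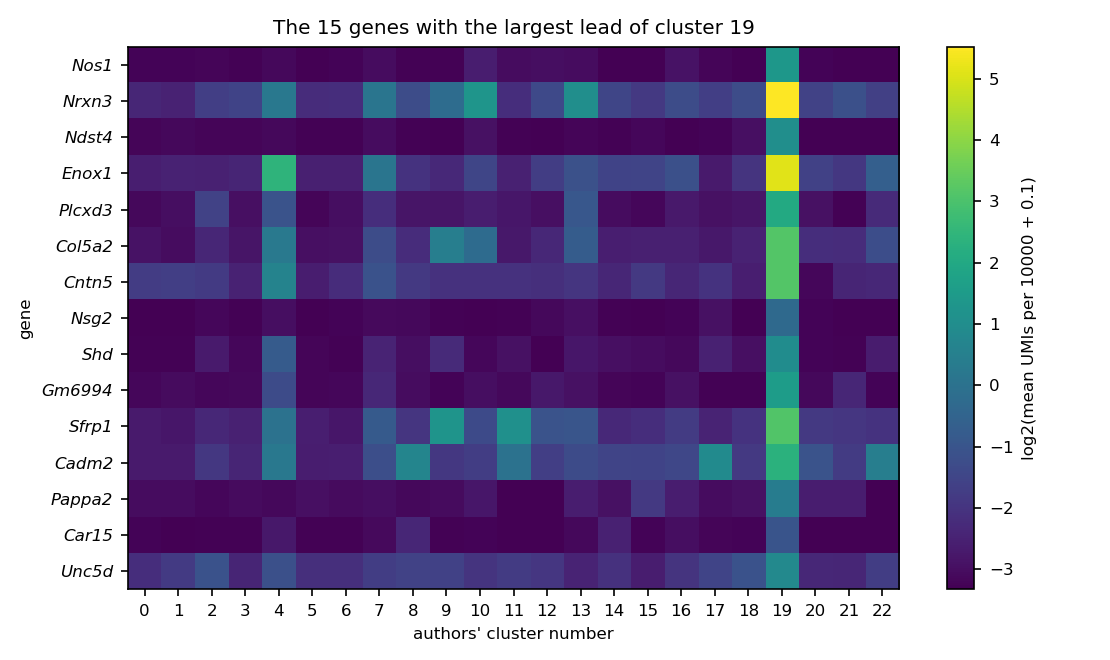
Mean level over 4 libraries, as log2(UMIs per 10000 + 0.1), of the 15 genes with the largest lead of cluster 19 (rows) in the 23 clusters (columns). Cluster 19 is the brightest column for each; Enox1 also reaches 5.30 in cluster 4, while Nos1 is at most 0.0649 in any other cluster.

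Cluster 4 was the nearest neighbour over the 5508 genes past the level filter. That filter used levels in clusters 2, 4 and 19, so the gene set may favour these clusters. The Pearson correlation of log2(level + 0.1) with cluster 4 was 0.865, 0.854, 0.887 and 0.847, the highest in each library. Cluster 9 followed at 0.80, 0.791, 0.85 and 0.798. Cluster 2 was below cluster 9 in each library, at 0.786, 0.743, 0.835 and 0.765. In Klf4deltaEC and Nos3-/- cluster 2 was also below cluster 11, which was at 0.760 and 0.838. The higher genes were long: the RefSeq span (GRCm38.p6) had a median of 181 kb over 56 of the 58, against 87.7 kb over 35 of the 37 lower genes and 50.7 kb over all genes with a span.

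Markers of other cell types are given as summed levels, in cluster 19 and then in cluster 4. Podocyte markers, a class with high Robo2, summed to 0.262 to 1.12 over 8 genes against 0.505 to 1.5, and to 203 on average in cluster 15, where they peaked. The 7 neural and glial markers in the table summed to 0.0856 to 0.261 against 0.128 to 0.214, with 5 of them at 0 in all 4 libraries of cluster 19. Endothelial markers summed to 0.334 to 1.71 over 10 genes against 0.413 to 1.17, and to 88.2 on average in cluster 10. Podocyte and endothelial markers were thus far below the clusters where they peaked.

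The 12 stromal and mesangial markers summed to 0.0362 to 0.225 against 0.117 to 0.335, and the 11 macrophage and lymphocyte markers to 0.865 to 1.24 against 0.775 to 1.17. Proximal tubule markers summed to 30.6 to 63.8 over 14 genes against 29.2 to 69.9, and connecting tubule markers to 4.62 to 15.3 over 7 genes against 4.14 to 16.7. Both were highest in the Nos3-/- library in clusters 2, 4 and 19. Distal convoluted tubule markers were above cluster 4 in each library, with sums of 43.7 to 75.6 over 8 genes against 36.9 to 52.1 (46 to 88 in cluster 2) and a median log2 ratio of 0.76 against -0.04 over all genes. Wnk1 and Abca13 made up most of that sum; the defining gene Slc12a3 was at 0.911, 4.06, 3.89 and 0.949 against 192 in cluster 9, and Pvalb was at 0 in all 4 libraries.

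Parietal epithelial markers summed to 2.86 to 4.02 over 6 genes against 3.43 to 4. Of the 2 past the filter 1 was counted higher, against 1.05% of all genes. That gene was Ncam1, a neural cell adhesion molecule, at 0.552, 0.346, 0.257 and 0.412. Intercalated cell markers summed to 0.980 to 2.05 over 9 genes against 0.442 to 1.81, principal cell markers to 0.569 to 0.903 over 8 genes against 0.544 to 0.735, and thin limb markers to 5.51 to 8.55 over 10 genes against 4.95 to 6.71. Urothelium markers reached at most 0.348 against 0.271, and cycling markers 0.146 against 0.0522. The part of other cells' RNA in the results was not tested.

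Cluster 19 was a similar share of all nuclei in each library, but its share of clusters 2, 4 and 19 varied more. It made up 4.69% [3.66 to 5.90], 6.06% [4.70 to 7.67], 6.29% [4.90 to 7.94] and 3.95% [2.98 to 5.12] of the nuclei of clusters 2, 4 and 19, by exact Clopper-Pearson intervals. The intervals of all 4 libraries overlapped, which does not show that the shares were equal. Nos3-/- and Klf4deltaECNos3-/- were furthest apart. As a share of all nuclei it was 1.01%, 0.930%, 0.942% and 0.983%.

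Between libraries, genes were counted where the log2 ratio of (level + 0.1) reached 1 or -1 and the higher library reached 0.5. Klf4deltaEC over control gave 201 higher (4.68%) and 229 lower (5.34%) of 4292 genes, 10% in all. Nos3-/- over control gave 492 higher (11%) and 358 lower (7.98%) of 4485, 19% in all. Klf4deltaECNos3-/- over Nos3-/- gave 407 higher (8.94%) and 458 lower (10.1%) of 4555, again 19% in all.

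Klf4deltaECNos3-/- over Klf4deltaEC gave 272 higher (6.27%) and 166 lower (3.83%) of 4339, 10.1% in all, and over control 242 higher (5.48%) and 181 lower (4.10%) of 4414, 9.58% in all. These comparisons share libraries and are not independent. In the same order the shares were 4.30%, 10.6%, 11.1%, 2.71% and 1.42% in cluster 2, with 2545 nuclei, and 1.24%, 8.71%, 9.58%, 1.2% and 1.24% in cluster 4, with 2127. With a pseudocount of 0.5 the 5 counts in cluster 19 were 55, 246, 268, 55 and 54. Under median-ratio scaling the division into higher and lower genes turned to 267 and 186 for Klf4deltaEC over control and to 194 and 240 for Klf4deltaECNos3-/- over Klf4deltaEC. With the mean ratio of clusters 2 and 4 subtracted the more frequent direction turned in all 5 comparisons, to 208 and 205, 264 and 307, 277 and 259, 186 and 193, and 193 and 215 in the order above.

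**Figure D4:**
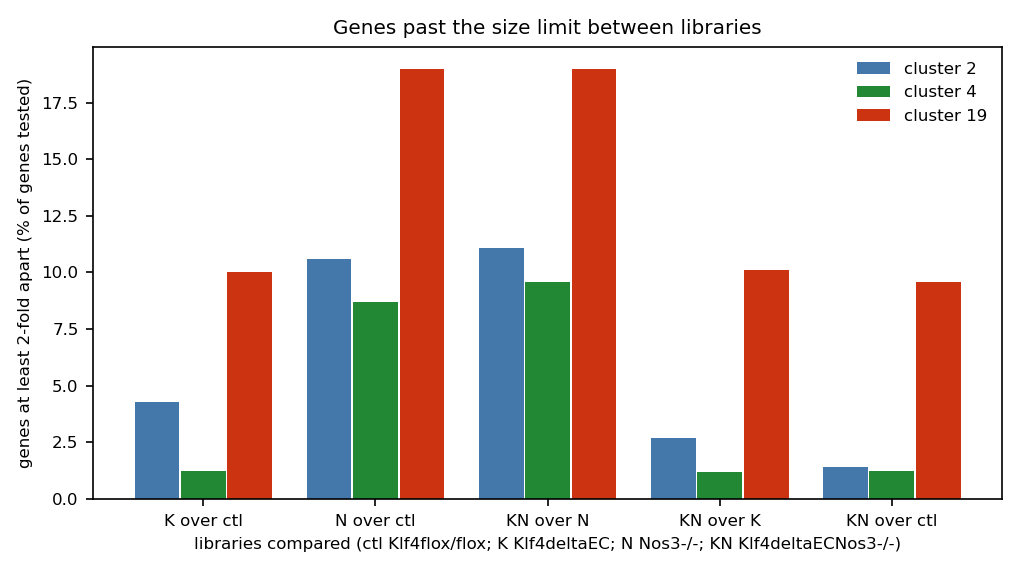
Percentage of tested genes at least 2-fold apart, on the (level + 0.1) scale, between 2 libraries in clusters 2, 4 and 19. Bars start at 0; both comparisons that use the Nos3-/- library are at 19% in cluster 19 and are the highest in clusters 2 and 4 as well.

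The Nos3-/- library stood apart in many genes of other segments, and in clusters 2 and 4 too. Slc13a1, a proximal tubule sulfate transporter, was at 0.811, 1.48, 6.37 and 0.841 in cluster 19, with log2 ratios of Nos3-/- over control of 2.83 [2.20 to 3.83], against 2.30 in cluster 2 and 2.44 in cluster 4. Kap, an abundant proximal tubule transcript, was at 21.4, 29.7, 2.95 and 18, a log2 ratio of -2.82 [-3.37 to -2.39] against -2.20 and -2.04. The mitochondrial transcript mt-Atp6 was at 6.82, 6.93, 1.05 and 7.75, and mitochondrially encoded genes summed to 58.1, 52.9, 23.6 and 55.3. Of 12 proximal tubule markers past the filter, 8 were higher and 1 lower in Nos3-/- than in control, against 11% and 7.98% of all genes, with a median log2 ratio of 1.11 against 0.09 over all genes. Results for that library are read with these values beside them; their part in each result was not tested.

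Of 19 thick ascending limb markers past the filter, 0 were higher and 2 lower in Nos3-/- than in control, against 11% and 7.98% of all genes. Their median log2 ratio was -0.51 against 0.09 over all genes. In Klf4deltaECNos3-/- over Nos3-/-, 3 of 18 were higher and 0 lower, against 8.94% and 10.1% of all genes, with a median of 0.44 against -0.03. Both comparisons use the Nos3-/- library. Klf4deltaECNos3-/- over control had 0 of 20 past the limit in either direction, against 5.48% of all genes higher and 4.10% lower. The median log2 ratio was 0.17 against 0.02 over all genes. In Klf4deltaEC over control 1 of 19 was higher and 1 lower, against 4.68% and 5.34% of all genes. Ptger3 was the lower one, at 0.684 against 2.30, a log2 ratio of -1.61 [-2.78 to -0.82]; the same ratio was 0.89 in cluster 2 and 0.45 in cluster 4. Nrxn3 had log2 ratios between -0.39 and 0.37 in all 5 comparisons.

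Several macula densa markers were highest in Klf4deltaECNos3-/-. Over control, 5 of the 10 past the filter were higher (Calcr, Itga4, Mcub, Bmp3 and Nos1) and 1 was lower (Sema3c), where 5.48% and 4.10% of all genes were. The median log2 ratio was 0.92 against 0.02 over all genes; some of the 10 passed the filter only through that library, so these figures describe the list. With the control and Klf4deltaEC libraries alone, 7 passed. Calcr, the calcitonin receptor, was at 0.167, 0.100, 0.174 and 1.45 [0.986 to 2.06], and the log2 ratio to control was 2.54 [1.52 to 5.30]. The 3 lower libraries rested on few molecules: 4 UMIs in 3 of 68 nuclei, 2 UMIs in 1 of 64 and 2 UMIs in 2 of 66, against about 31 inferred UMIs in Klf4deltaECNos3-/-. How many of the 54 nuclei of that library held them was not resolved, nor was it for Itga4, Mcub and Bmp3. Cluster 2 and cluster 4 showed no such difference, at -0.15 and 0.05.

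Itga4, an integrin chain, was at 0.147, 0.795, 0.546 and 1.32 [0.880 to 1.90], and its log2 ratio to control was 2.52 [1.47 to 5.53], against 0.12 and -0.01 in clusters 2 and 4. The control held 5 Itga4 UMIs, each in a different nucleus. Mcub, an inhibitory subunit of the mitochondrial calcium uniporter, was at 0.0267, 0, 0.0398 and 0.770 [0.445 to 1.24]. Bmp3, a bone morphogenetic protein, was at 0.151, 0.0235, 0.0895 and 0.571, and Ptgs2 was highest in the same library at 0.367. Itga4 and Bmp3 were higher elsewhere, with means of 4.48 in cluster 21 and 1.34 in cluster 20. Mcub had a mean of 0.644 in cluster 21. The lower gene was Sema3c, at 3.13 in control and 1.13 in Klf4deltaECNos3-/-. Nos1 was at 1.52 in control and 3.18 in Klf4deltaECNos3-/-, a log2 ratio of 1.01, and at 3.13 in Nos3-/-, where the control interval reached 2.16. Pappa2 was lowest in Nos3-/-, at 0.510, and highest in Klf4deltaECNos3-/-, at 1.84, and the intervals of those 2 libraries did not overlap. The library with these higher markers had the deepest nuclei of cluster 19, with a median of 3978 UMIs against 2128 to 2977 in the others; the part of depth was not tested.

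**Figure D5:**
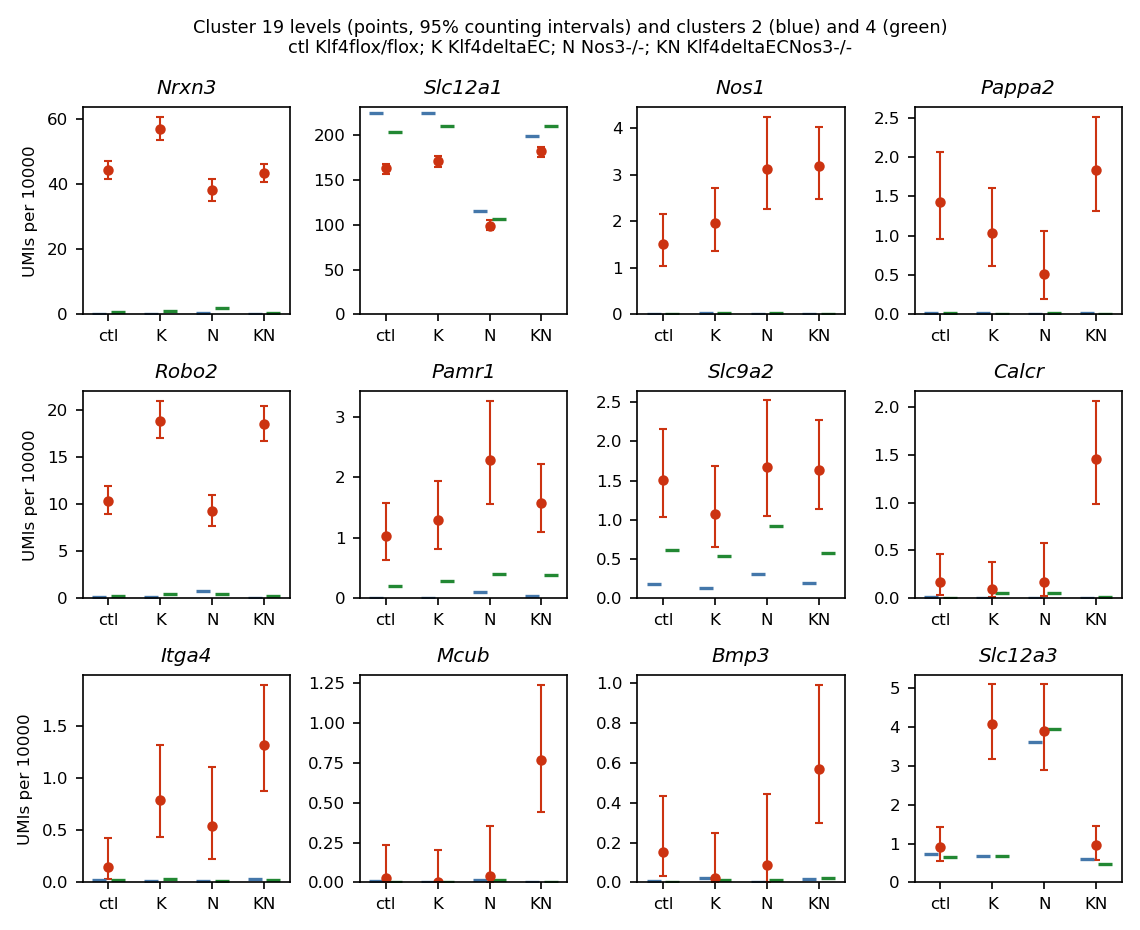
Level in UMIs per 10000 of 12 genes in cluster 19 by library (red points with 95% counting intervals) and in clusters 2 (blue dashes) and 4 (green dashes); axes start at 0. In cluster 19 Calcr, Itga4, Mcub and Bmp3 are highest in Klf4deltaECNos3-/-, and Robo2 is higher in both Klf4deltaEC-labelled libraries.

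Some genes were higher in both Klf4deltaEC-labelled libraries, a grouping chosen after the data were seen. Over the 2 comparisons that share no library, Klf4deltaEC over control and Klf4deltaECNos3-/- over Nos3-/-, 24 of 3792 genes (0.633%) were higher in both, 27 (0.712%) were lower in both, and 12 and 16 were apart in opposite directions. In cluster 2, 17 genes (0.456%) were higher in both and 4 (0.107%) lower. In cluster 4 these were 12 (0.318%) and 2 (0.0530%). Gm6994, an uncharacterised gene and one of the 15 leading genes, was at 1.04, 5.30, 0.343 and 4.77, with log2 ratios of 2.24 [1.66 to 3.10] and 3.46 [2.48 to 5.54]. In cluster 4 the same ratios were 1.56 and 1.35, and in cluster 2 they were 0.35 and 0.07. Gm6994 lies within the span of Enox1 on chromosome 14, on the opposite strand. Enox1, given above, was also at a higher level in both Klf4deltaEC-labelled libraries. Whether RNA of Enox1 was counted as Gm6994 was not tested. Flvcr1, a choline and heme transporter, was at 3.71, 9.18, 3.56 and 7.65, and was singled out after its values were seen. In cluster 4 it was also higher in both, at 1.04, 4.66, 2.13 and 3.81. Robo2 and Wnk1 were ordered the same way, with 10.4 and 9.25 against 18.9 and 18.5 for Robo2, and 30.8 and 22.3 against 48.0 and 45.2 for Wnk1. Neither reached the limit in both comparisons, so neither is among the 24. Cubn, a proximal tubule receptor among the genes lower in both, was at 0.873, 0.193, 2.91 and 0.311, and was highest in the Nos3-/- library in cluster 2 as well (0.516, 0.517, 3.53 and 0.321).

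Other large differences named by rank were single cases. Lgals3, encoding galectin 3, was at 1.23 in Klf4deltaEC against 0.234 in control, a log2 ratio of 1.99 [0.93 to 4.20], with -0.18 and 0.45 in clusters 2 and 4. Angpt1, an angiopoietin, was at 0.0599 in Klf4deltaECNos3-/- against 1.22 in Klf4deltaEC, a log2 ratio of -3.05 [-8.71 to -1.96], with -0.43 and -0.47 in clusters 2 and 4. Gadd45g, a stress-response gene, was at 0.392 in Klf4deltaECNos3-/- against 1.98 in control, a log2 ratio of -2.08 [-3.61 to -1.25]. Bcl6, a transcriptional repressor, was at 1.90 in Klf4deltaECNos3-/- against 0.277 in Klf4deltaEC, with log2 ratios of 2.41 in cluster 19 and 1.30 in both larger clusters. Zbtb16, a glucocorticoid-responsive factor, was at 1.24 in Klf4deltaECNos3-/- against 4.56 in control, a log2 ratio of -1.80, which was smaller in size than in cluster 2 (-3.07) and cluster 4 (-1.97).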

How the data were processed

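The deposited table holds a normalized signal by the authors for 21046 genes in 92 columns, 23 clusters in each of 4 libraries. Every column sums to 10000, so a value is a mean over nuclei of UMIs per 10000. Cell Ranger, Seurat and mm10 are named in the submitters' processing notes; the sources used here do not give clustering settings, doublet handling or filters. The table holds 0 columns of other samples. Nuclei numbers and UMI totals are inferred: a single UMI seen once in a column contributes 10000 divided by the product of nuclei number and that nucleus's UMI total, and the number taken divided 98.2% to 100% of such reciprocals and its double at most 63.2%. Inferred UMI numbers are approximate: in 32 values whose UMIs could be resolved nucleus by nucleus (at most 8 UMIs), they were 0.103 to 1.24 times the resolved number (median 0.885).

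Ratios are log2((a + 0.1)/(b + 0.1)), which understates changes of low genes. Level intervals are exact Poisson and ratio intervals Clopper-Pearson without the pseudocount, on inferred UMIs. Per cluster comparison the 15 highest, 15 lowest and 15 leading genes, per library comparison the 6 highest and 6 lowest genes reaching 1 per 10000, all thick ascending limb and macula densa markers, counted list members and the 5 genes most like Nrxn3 could be named; other counted genes and list members were also named to fill a group. The lists and members were chosen with earlier results of these data known. Python 3.11.15, numpy 2.4.6, pandas 2.3.3, scipy 1.17.1 and matplotlib 3.10.9 were used, and the calculations were tested on simulated data. Alternatives changed the pseudocount, filter, scaling, libraries and background ratio. A few list members are counted in their lists and not reported here by name.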

Additional observations from a re-analysis of the deposited data

Results flagged for a closer look

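Slc12a3, which encodes the thiazide-sensitive salt cotransporter of the next segment, had opposite ratios for the Klf4deltaEC label on the 2 backgrounds. Its log2 ratio was 2.04 for Klf4deltaEC over control and -1.93 for Klf4deltaECNos3-/- over Nos3-/-, a difference of 3.97 that was not tested, since each group is 1 library. The levels in cluster 19 were 0.911, 4.06, 3.89 and 0.949. The second ratio was also low in cluster 2 (-2.43) and cluster 4 (-2.85), whereas the first was near 0 there (-0.11 and 0.02). In Nos3-/- these clusters were at 3.62 and 3.94. The value of Klf4deltaEC in cluster 19 came from about 74 inferred UMIs, and how many nuclei held them was not resolved. Cluster 9 had a mean of 192. Pvalb, a further marker of the distal convoluted tubule, was at 0 in all 4 libraries of cluster 19.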

How the results depend on the processing

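No paired analysis was possible because each genotype has 1 library and shares only the number 1. The counts of 58 higher and 37 lower genes in cluster 19 were 24 and 17 with a pseudocount of 0.5 and 32 and 24 with a filter of 2 per 10000. Leaving out single libraries gave 61 to 97 and 45 to 68, the highest without the Nos3-/- library. Fewer ratios then had to pass, so a counted gene could be lost only through the level filter. That 57 of the 58 and all 37 stayed was therefore set by the rule and says nothing on stability. The other 4 settings gave 58 to 74 and 34 to 52. Macula densa genes counted higher numbered 3 to 5 of the list, Pappa2 dropping out at a pseudocount of 0.5 and Itga4 joining at 0.02 and without the control. The mean correlation with cluster 4 was 0.863, 0.894 with a pseudocount of 0.5 and 0.893 without the counted genes, and cluster 4 stayed first in 4 of 4 libraries. The counted genes were picked for differing from clusters 2 and 4, so removing them favours a higher correlation.

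Counts between libraries, in the order Klf4deltaEC over control, Nos3-/- over control, and Klf4deltaECNos3-/- over Nos3-/-, over Klf4deltaEC and over control, were 430, 850, 865, 438 and 423. They were 55, 246, 268, 55 and 54 with a pseudocount of 0.5, 1743, 2653, 2695, 1804 and 1639 with no filter, and 24, 136, 137, 34 and 37 with a filter of 2. Subtracting the mean ratio of clusters 2 and 4 moved the second to 571 and the third to 536, with 382 and 352 genes shared with the counts above. It also turned 4 of 60 named ratios: Mettl23 to 0.13 (Nos3-/- over control), Gm42397 to 0.71 and Fut9 to 0.46 (Klf4deltaECNos3-/- over Nos3-/-) and Zbtb16 to 0.72 (Klf4deltaECNos3-/- over control). The share of higher genes moved by over 10 points under median-ratio scaling for Klf4deltaEC over control (46.7% to 58.9%) and Klf4deltaECNos3-/- over Klf4deltaEC (62.1% to 44.7%). With subtraction it moved for Nos3-/- over control (57.9% to 46.2%) and Klf4deltaECNos3-/- over Klf4deltaEC (to 49.1%). With no filter it moved to 45.8% for Nos3-/- over control and from 47.1% to 60.3% for Klf4deltaECNos3-/- over Nos3-/-, which was 36.2% with a pseudocount of 0.5. With a filter of 2 these were 73.5% and 25.5%, and Klf4deltaECNos3-/- over Klf4deltaEC was 41.2%. Of 964 values of named genes under the alternatives, 907 moved by less than the spread over ratios or the counting interval and 53 by more. With 54 to 68 nuclei per library, 3 counts corresponded on average to levels of 0.140 to 0.224. Lower levels can rest on more: Ppfia2 at 0.0240 in Klf4deltaECNos3-/- came from 5 UMIs in 1 nucleus of 38655 UMIs. The cause of these shifts was not tested.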
